A study of Rattus norvegicus with 9 samples.

Results

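Kidneys of spontaneously hypertensive rats (SHR) that had received dapagliflozin were compared with kidneys of Wistar-Kyoto rats (WKY), gene by gene. Of the 19367 genes in the deposited table, 12870 entered the comparison, because their level was at least 1 FPKM in at least 3 of the 6 libraries of the treated SHR and WKY groups. FPKM, a count of sequenced fragments divided by transcript length and by the size of the library, allows levels to be compared between genes. WKY is the normotensive strain usually set beside SHR, an inbred line of Wistar-Kyoto descent with high blood pressure. Rats entered at 3 months of age, and treated SHR had dapagliflozin orally at 10 mg per kg per day over the following 8 weeks. WKY and a group of untreated SHR had distilled water per the treatment protocol, although another label field lists saline for them. Each of the 3 groups had 3 libraries from kidney RNA. The titles gave the groups, since the strain entry of the labels is Wistar-Kyoto throughout. Sex, the kidney region taken and the animal behind each library are not given in the labels, so p-values here measure the spread between libraries.

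The comparison joins a difference of strain and a drug. WKY given dapagliflozin were not among the groups, so strain and drug cannot be told apart in it. Levels in untreated SHR are therefore printed wherever the levels of single libraries are given, and the differences of untreated SHR from WKY and of treated from untreated SHR come from the same model. These comparisons share libraries and are not independent of each other. Between treated and untreated SHR, 0 of the 12870 tested genes passed at an adjusted p below 0.05 in that model. Statements below on how treated libraries lay beside untreated ones are descriptions. How many of all tested genes separate in this way was not counted.

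Dapagliflozin blocks SGLT2, the product of Slc5a2, which takes up filtered glucose together with sodium in the early proximal tubule. Glucose that escapes is partly recovered by SGLT1 (Slc5a1) further along the proximal tubule. The thick ascending limb, distal convoluted tubule and collecting duct then adjust salt, water, acid and potassium, each with carriers of its own, so that lists of carrier genes mark these segments in whole-kidney RNA. In bulk RNA, fewer cells of a type and less RNA per cell cannot be told apart.

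A run of neighbouring genes carried some of the widest differences of both SHR groups from WKY, and the sequences in front of its named members are shown first for that reason. Setd4 (a SET-domain protein methyltransferase), Cbr1 and Cbr3 (carbonyl reductases, which reduce quinones, prostaglandins and drugs) lie close together on chromosome 11 and were listed at or near 0 FPKM in WKY. The windows below are the 250 bases before each annotated start in RefSeq, build GRCr8, a reference of the Brown Norway strain and so of neither strain studied. They lie at chr11:46344025-46344274 on the minus strand for Setd4, chr11:46346155-46346404 on the plus strand for Cbr1 and chr11:46478045-46478294 on the plus strand for Cbr3. Capitals mark matches to the ETS motif CCGGAAGT on either strand, a motif picked because it was noticed in these sequences, after 7 others had been searched. Results for all 8 motifs follow the sequences.
Setd4: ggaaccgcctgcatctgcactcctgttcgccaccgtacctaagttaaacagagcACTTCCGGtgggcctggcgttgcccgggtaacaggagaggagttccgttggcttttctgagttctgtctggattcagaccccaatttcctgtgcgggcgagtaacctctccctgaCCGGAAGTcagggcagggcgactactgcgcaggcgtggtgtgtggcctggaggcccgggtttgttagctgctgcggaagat
Cbr1: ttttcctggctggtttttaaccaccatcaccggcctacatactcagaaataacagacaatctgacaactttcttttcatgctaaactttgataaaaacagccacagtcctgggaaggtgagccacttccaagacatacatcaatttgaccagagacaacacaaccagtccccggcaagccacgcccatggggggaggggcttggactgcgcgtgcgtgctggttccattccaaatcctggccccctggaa
Cbr3: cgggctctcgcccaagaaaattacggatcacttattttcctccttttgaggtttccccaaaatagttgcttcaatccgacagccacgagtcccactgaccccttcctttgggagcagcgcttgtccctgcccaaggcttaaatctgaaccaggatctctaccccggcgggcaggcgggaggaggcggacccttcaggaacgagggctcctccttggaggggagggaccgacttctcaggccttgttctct
Setd4 and Cbr1 are read away from each other, with 1880 bases between their windows, and the Cbr3 window lies 131640 bases beyond that of Cbr1. The Setd4 window held 2 ETS matches and the windows of Cbr1 and Cbr3 held 0. At least 1 match was held by 3.29% of 27457 RefSeq promoter windows of this length. Among the 10160 windows of tested genes the share was higher, 6.9%. Of the 7 motifs searched earlier, each on both strands, only AP-2 (GCCNNNGGC, in 13.0% of windows and 20.8% of those of tested genes) had a match, 1 in the Cbr3 window. The antioxidant response element TGACNNNGC (in 10.2% of windows), the TATA box TATAAA (13.1%), the full HNF1 palindrome (0.00364%) and its half-site GTTAAT (6.46%), HNF4 CAAAGTCCA (0.331%) and forkhead TGTTTAC (3.25%) had 0 matches in all 3 windows. Among windows of tested genes the shares of these motifs were, in the same order, 12.5%, 6.53%, 0%, 4.24%, 0.305% and 2%. The HNF1 palindrome contains its half-site on both strands, so their matches overlap. The HNF1, HNF4, AP-2 and forkhead motifs were first tried on windows that also held the 50 bases after the start and on other genes' promoters, before these 3 genes were chosen. The windows were 59.6% (Setd4), 50.4% (Cbr1) and 57.2% (Cbr3) G or C. How WKY and SHR differ in these sequences was not analysed here.

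Before any gene is read, libraries that stood apart have to be named. The first principal component of log2(FPKM + 1) held 54.1% of the variance and placed WKY at -41.9, -16.2 and -33.9, untreated SHR at 5.78, -1.80 and 9.86, and treated SHR at 4.65, 31.2 and 42.3. WKY libraries 1 and 3 lay at one end, treated libraries 2 and 3 at the other, and treated library 1 lay among untreated SHR. Late proximal genes minus podocyte genes, as mean log2 levels, gave a segment score of 4.87, 3.20 and 3.99 in WKY, 3.17, 3.53 and 2.87 across untreated SHR, and 3.36, 2.21 and 1.55 across treated SHR. Library 1 of treated SHR again lay within the range of the untreated rats and of WKY, while treated libraries 2 and 3 lay below all others. Correlations of log2 levels were 0.969 to 0.990 within groups and 0.919 to 0.971 between WKY and treated SHR. Of 12 markers of adrenal gland, fat and muscle, 8 were at most 1 FPKM in all 9 libraries, among them Cyp11b2 of the adrenal cortex (at most 0.26 FPKM) and Myh4 of skeletal muscle (at most 0.03 FPKM). The fat hormone gene Adipoq was present in every library, at 9.97 to 18.9 FPKM, and the adrenal gene Cyp21a1 lay at 1.59 to 6.08 FPKM. Fabp4 of fat reached 3.04 FPKM and Acta1 of muscle 1.04 FPKM. The part of these tissues in the results was not tested.

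**Figure D1:**
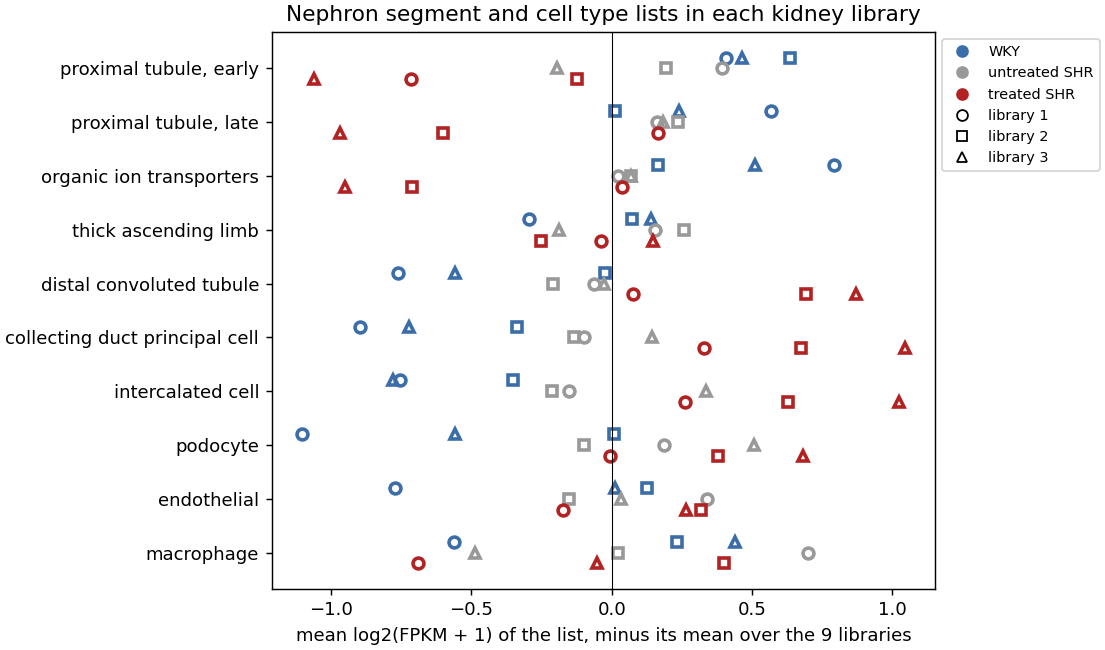
Mean log2(FPKM + 1) of each nephron segment or cell type list in each of the 9 libraries, as the difference from that list's mean over the 9 libraries (x axis); color gives the group and shape the library number. Proximal lists were lowest in treated libraries 2 and 3 for the late segment and in treated libraries 1 and 3 for the early segment, while collecting duct and intercalated lists placed all 3 treated libraries above all 3 WKY libraries.

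A total of 3011 genes (23.4% of those tested) differed between treated SHR and WKY at an adjusted p below 0.05, by limma on log2(FPKM + 1). Of these, 2214 (17.2%) were higher and 797 (6.19%) lower in treated SHR. The 3 treated and 3 WKY libraries did not overlap for 4993 genes (38.8%), including 2893 of those called. Changes were mostly modest: 590 called genes (4.58%) reached 2-fold, and 70 reached a log2 change of at least 2 in size, 29 of them higher and 41 lower. The median over all tested genes was 0.108, and 0.108 is the value against which log2 changes of lists are to be read. Rescaling the libraries by median of ratios moved that median to -0.0137 and gave 1443 higher and 1225 lower calls, so that the share of higher calls was 54.1% in place of 73.5%. The counts of called members of each gene list below are to be read against the 17.2% higher and 6.19% lower of all tested genes, and a list near both shares shows no more than the whole.

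The number called depended on single libraries. It was 847 without WKY library 1, 603 without WKY library 3, 1114 without treated library 2 and 964 without treated library 3, and it rose to 4762 without treated library 1. Of the 3011 genes, 560 were called whichever library was left out, 391 higher and 169 lower. With the segment score as a covariate 210 genes (1.63%) were called, 121 higher (0.940%) and 89 lower (0.692%), and 198 of the 3011 were among them. The mean of both proximal lists as the covariate, in place of the score, left 35. With the segment score as the covariate all 3011 genes kept their sign, and the median size of their log2 change went from 0.607 to 0.311. In an alternative chosen after seeing the data, the 4 libraries at the ends of the segment gradient were left out (WKY 1 and 3, treated 2 and 3). Only WKY library 2 and treated library 1 then remain in the compared groups. A call lost with these 4 end libraries left out therefore does not show that the difference was gone.

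**Figure D2:**
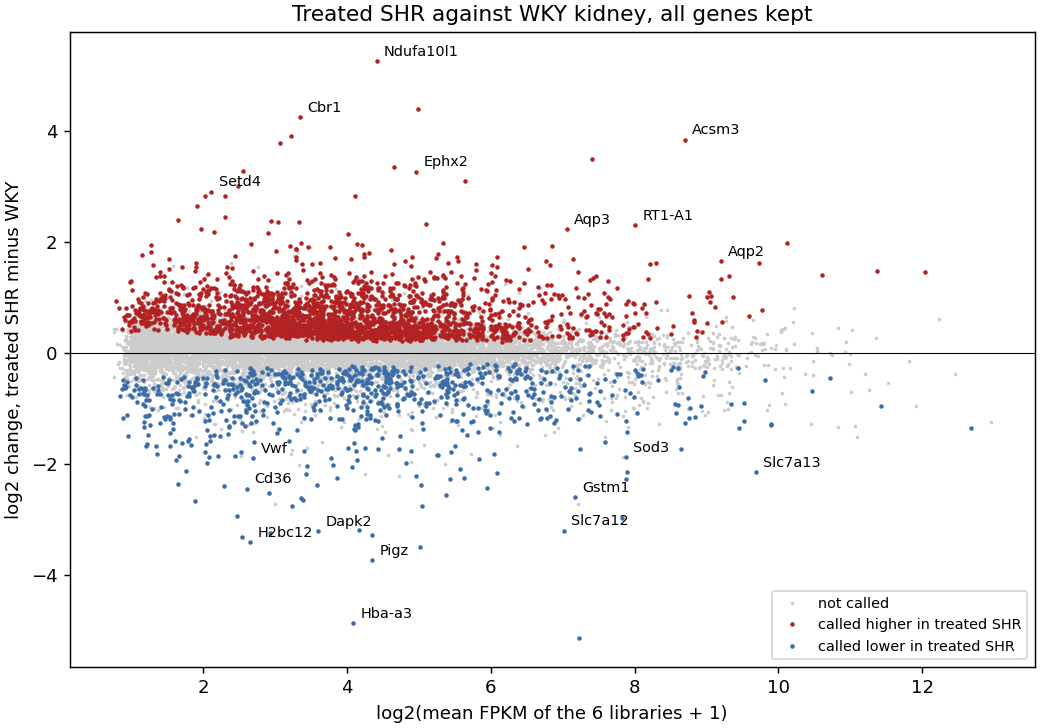
Log2 change of treated SHR against WKY (y axis) against log2 of the mean FPKM of the 6 libraries plus 1 (x axis), 1 point per tested gene, with 2214 genes called higher in red and 797 called lower in blue. For genes listed at 0 in a group, the height of the point depends on the pseudocount of 1, so Ndufa10l1, Cbr1 and Hba-a3 mark large differences whose fold is not defined.

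In treated SHR a small set of genes was present that WKY kidneys all but lacked. There were 104 genes at 1 FPKM or more in all 3 treated libraries and in no WKY library, and 63 with the reverse pattern. Ndufa10l1, a relative of the complex I subunit gene Ndufa10, stood at 0.29, 0 and 0 FPKM across WKY, 39.96, 35.2 and 32.2 across untreated and 42.5, 39.8 and 39.4 across treated SHR (adjusted p = 1e-07). Treated and untreated SHR lay close together and far above WKY. Ndufa10 itself was called lower in treated SHR, a call kept among the single leave-outs only without treated library 1. How reads were divided between these related genes was not tested, so the level of Ndufa10l1 is uncertain. Cbr1 was listed at 0 in all 3 WKY libraries, against 8.94, 9.84 and 10.8 FPKM across untreated and 13.3, 17.8 and 24.1 across treated SHR (adjusted p = 4.5e-06). Cbr3 was also listed at 0 in WKY, with 4.01, 3.44 and 4.85 FPKM in untreated and 3.54, 4.25 and 5.05 in treated SHR (adjusted p = 4.8e-05). Every treated library exceeded every untreated SHR library for Cbr1 and not for Cbr3, and the treated minus untreated difference did not pass the test for either (log2 0.81, adjusted p = 0.276 for Cbr1; 0.05, adjusted p = 0.885 for Cbr3). Setd4 stood at 0.05, 0 and 0.01 FPKM across WKY, 6.22, 5.35 and 6.71 across untreated and 6.19, 6.37 and 7.39 across treated SHR (adjusted p = 3.1e-06).

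Other genes that were far lower in WKY belonged to several families. Apoh, which encodes the plasma protein beta-2-glycoprotein I, was listed at 0 in WKY, at 7.21, 12.2 and 9.50 FPKM in untreated SHR and at 16.4, 2.86 and 4.36 in treated SHR (adjusted p = 0.00838), with treated library 1 the highest of all. Ifit1, an interferon-induced RNA-binding protein, stood at 0, 0.04 and 0 FPKM across WKY, 6.45, 3.22 and 3.55 across untreated and 3.61, 6.10 and 6.88 across treated SHR (adjusted p = 0.00069). Crabp1, which binds retinoic acid in the cytosol, stood at 0.22, 0.12 and 0.23 FPKM across WKY, 2.33, 3.30 and 4.31 across untreated and 5.27, 8.99 and 12.7 across treated SHR (log2 change 2.998 ± 0.27 (SE), adjusted p = 0.000543). The 3 groups did not overlap for Crabp1, which was lowest in WKY and highest in treated SHR. The synaptic vesicle glycoprotein gene Sv2a had 1.38, 1.96 and 1.61 FPKM across WKY, 8.31, 7.47 and 8.21 across untreated and 9.27, 13.3 and 15.8 across treated SHR (log2 change 2.36 ± 0.17 (SE), adjusted p = 0.00015), and the beta-defensin Defb9 had 1.40, 0.98 and 1.92 FPKM across WKY, 3.94, 5.25 and 6.37 across untreated and 7.27, 14.3 and 14.2 across treated SHR (log2 change 2.37 ± 0.26 (SE), adjusted p = 0.00153). Both were low rather than missing in WKY and showed the order of group means of Crabp1. All 9 genes named as higher in these paragraphs, with Setd4, Cbr1 and Cbr3 among them, were called whichever single library was left out and with the segment covariate. Ifit1, Crabp1 and Defb9 were no longer called with the 4 end libraries left out.

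**Figure D3:**
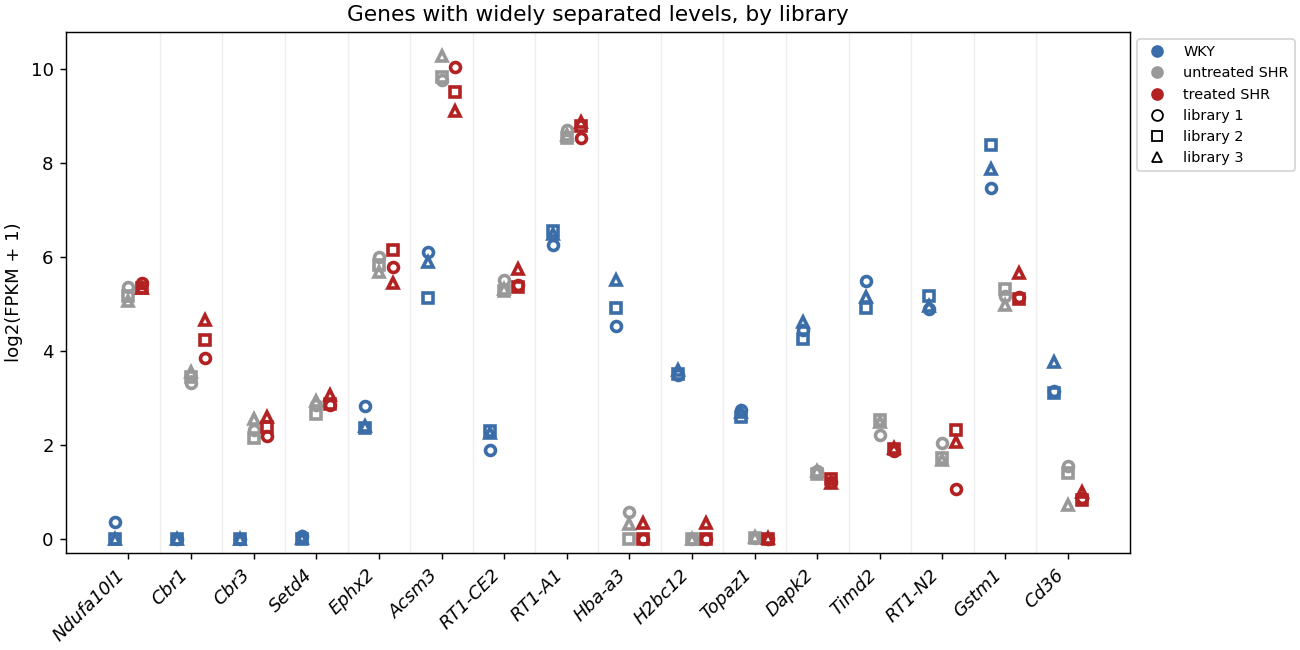
Levels of 16 genes with wide differences, as log2(FPKM + 1) (y axis), 1 symbol per library. For the genes on the left WKY libraries (blue) lay near 0 or far below both SHR groups, for those on the right far above, and treated (red) and untreated (grey) SHR lay close together for most.

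In the reverse direction, genes active in WKY were nearly missing from treated SHR. H2bc12, a histone H2B gene, had 10.2, 10.3 and 11.1 FPKM in WKY, was listed at 0 in all untreated SHR libraries and had 0, 0 and 0.27 in treated SHR (adjusted p = 2.9e-06). The alpha-globin gene Hba-a3 had 22.2, 29.1 and 44.7 FPKM across WKY, 0.49, 0 and 0.24 across untreated and 0, 0 and 0.26 across treated SHR (adjusted p = 1.5e-05). Topaz1, known as a germ cell gene, had 5.70, 5.08 and 5.48 FPKM across WKY, 0.01, 0.01 and 0.03 across untreated and 0, 0 and 0.01 across treated SHR (adjusted p = 3.4e-06). Histone and globin genes have near-identical copies between which the authors' counting could move reads, so the levels of H2bc12 and Hba-a3 are uncertain.

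Dapk2 and Timd2 were low rather than missing in SHR. Dapk2, a calcium/calmodulin-regulated death-associated kinase, had 20.9, 18.2 and 23.6 FPKM across WKY, 1.71, 1.62 and 1.73 across untreated and 1.31, 1.43 and 1.28 across treated SHR (log2 change -3.22 ± 0.11 (SE), adjusted p = 1.4e-06). Timd2, a cell-surface receptor for heavy-chain ferritin, had 43.6, 29.4 and 34.7 FPKM across WKY, 3.66, 4.78 and 4.61 across untreated and 2.65, 2.77 and 2.80 across treated SHR (log2 change -3.28 ± 0.14 (SE), adjusted p = 5.1e-06). Pigz, which adds a mannose to glycosylphosphatidylinositol anchors, had 37.6, 29.9 and 42.5 FPKM across WKY, 4.89, 2.72 and 2.45 across untreated and 4.64, 1.02 and 0.91 across treated SHR (log2 change -3.74 ± 0.40 (SE), adjusted p = 0.00118). Treated library 1 stood near the untreated rats for Pigz, and treated libraries 2 and 3 stood below all others. Further falls were seen for Cela1, a chymotrypsin-like elastase (log2 change -3.50 ± 0.38 (SE), adjusted p = 0.00141), Gng13, a G protein gamma subunit (log2 change -2.98 ± 0.57 (SE), adjusted p = 0.0123), the olfactory receptor gene Olr1668 (log2 change -2.95 ± 0.39 (SE), adjusted p = 0.00371) and the beta-defensin Defb42 (log2 change -2.77 ± 0.37 (SE), adjusted p = 0.0036). Of the 10 genes in this and the previous paragraph, 9 were called whichever library was left out; Gng13 was not called without WKY library 3. With the segment covariate 7 of the 10 were called, and Gng13 (log2 -1.54), Olr1668 (-1.95) and Defb42 (-2.09) were not. With the 4 end libraries left out, Hba-a3, H2bc12, Topaz1, Dapk2 and Timd2 were still called.

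Enzymes of fatty acid, epoxide and drug metabolism were among the largest differences in both directions. Ephx2, the soluble epoxide hydrolase that breaks down epoxyeicosatrienoic acids, had 6.10, 4.12 and 4.30 FPKM across WKY, 62.8, 56.3 and 50.6 across untreated and 54.1, 69.9 and 42.3 across treated SHR (log2 change 3.26 ± 0.19 (SE), adjusted p = 4.1e-05). Acsm3, a medium-chain acyl-CoA synthetase long studied as the SA gene of hypertensive rats, had 67.5, 34.04 and 58.8 FPKM across WKY, 867, 903 and 1232 across untreated and 1052, 724 and 547 across treated SHR (log2 change 3.84 ± 0.30 (SE), adjusted p = 0.000226). Eri2, an exonuclease gene next to Acsm3 on chromosome 1, had 11.1, 6.84 and 9.94 FPKM across WKY, 96.02, 102 and 144 across untreated and 121, 78.7 and 65.2 across treated SHR (log2 change 3.09 ± 0.26 (SE), adjusted p = 0.000319). All SHR libraries lay above all WKY libraries for each of these genes, and treated and untreated SHR overlapped for each.

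Gstm1, a glutathione S-transferase, fell from 177, 332 and 232 FPKM in WKY to 34.2, 33.4 and 49.2 in treated SHR, with 35.1, 38.9 and 30.5 in untreated SHR (log2 change -2.61 ± 0.23 (SE), adjusted p = 0.000492). Ces2g, a carboxylesterase, had 54.6, 63.1 and 52.3 FPKM across WKY, 12.9, 10.2 and 10.02 across untreated and 7.86, 9.85 and 5.29 across treated SHR (log2 change -2.77 ± 0.19 (SE), adjusted p = 0.000102). Cd36, a fatty acid translocase with a known defect in some SHR stocks, had 7.89, 7.64 and 12.7 FPKM across WKY, 1.95, 1.64 and 0.65 across untreated and 0.83, 0.78 and 0.99 across treated SHR (log2 change -2.45 ± 0.24 (SE), adjusted p = 0.000879). Both SHR groups lay below all WKY libraries for these 3 genes, and Gstm1 and Ces2g belong to families of close copies that could exchange reads. The flavin monooxygenase Fmo2 had 3.87, 8.77 and 6.04 FPKM across WKY, 43.1, 38.6 and 43.8 across untreated and 31.1, 31.9 and 17.9 across treated SHR (log2 change 1.97 ± 0.27 (SE), adjusted p = 0.00424), with all treated libraries below all untreated ones and above all WKY ones. Sod3, the extracellular superoxide dismutase, fell from 438, 278 and 391 FPKM in WKY to 129.5, 98.5 and 73.1 in treated SHR, with 139, 197 and 192 in untreated SHR (log2 change -1.88 ± 0.24 (SE), adjusted p = 0.00308).

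Srxn1, which restores oxidized peroxiredoxins, had 6.98, 8.87 and 7.68 FPKM across WKY, 14.8, 12.7 and 16.3 across untreated and 19.2, 22.8 and 26.8 across treated SHR (log2 change 1.43 ± 0.14 (SE), adjusted p = 0.00079). Over the 24 redox defence genes tested, 5 were higher and 3 lower with a median log2 change of -0.15 (20.8% and 12.5%, beside 17.2% and 6.19% of all tested genes). Nfe2l2, the transcription factor NRF2 (log2 change 0.68 ± 0.13 (SE), adjusted p = 0.0134), and Hmox1, heme oxygenase 1 (log2 change 1.11 ± 0.27 (SE), adjusted p = 0.0235), were among the higher. Without WKY library 1 the higher count was 1, and without treated library 1 the lower count was 9. Over 33 xenobiotic metabolism genes, 7 were higher, 3 lower and 23 not called, with a median of -0.18 (21.2% and 9.09%, close to the shares of all tested genes). Of the 12 enzymes and regulators named here, with Pecr, a peroxisomal enoyl-CoA reductase (log2 change 0.88 ± 0.21 (SE), adjusted p = 0.0235), 9 were called whichever library was left out; Nfe2l2, Hmox1 and Pecr were not called without WKY library 1. Nfe2l2 and Pecr also lost their call without WKY library 3, Pecr without treated library 2 and Hmox1 without treated library 3. With the 4 end libraries left out, Acsm3, Ces2g, Ephx2, Eri2, Fmo2, Gstm1 and Pecr were called. Of 20 genes discussed elsewhere as candidates in hypertensive rats, 6 rose (Ephx2, Acsm3, Add1, Stim1, Ndufa12 and Mrpl48) and 3 fell (Gstm1, Cd36 and Endog). That is 30% and 15%, beside 17.2% and 6.19% of all tested genes. Without WKY library 1, 2 of the 6 were called higher. The candidate list was chosen with earlier results of these data known, so its shares are not independent of them.

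The RT1 genes, the major histocompatibility complex of the rat on chromosome 20, moved in both directions. Of 33 histocompatibility and antigen presentation genes tested, 5 were higher and 8 lower in treated SHR, and 20 were not called, which is 15.2% and 24.2% beside 17.2% and 6.19% of all tested genes. The class I gene RT1-A1 had 75.7, 93.4 and 89.1 FPKM across WKY, 415, 368 and 385 across untreated and 371, 443 and 469.6 across treated SHR (log2 change 2.30 ± 0.12 (SE), adjusted p = 1.5e-05). RT1-CE2 had 2.72, 3.94 and 3.79 FPKM across WKY, 44.4, 37.6 and 38.7 across untreated and 41.6, 40.1 and 52.7 across treated SHR (log2 change 3.35 ± 0.14 (SE), adjusted p = 4.5e-06), and RT1-CE4 had 8.70, 12.5 and 10.1 FPKM across WKY, 55.3, 44.2 and 49.5 across untreated and 46.4, 57.1 and 64.3 across treated SHR (log2 change 2.31 ± 0.15 (SE), adjusted p = 8.8e-05). RT1-CE10 went the other way, with 67.5, 69.9 and 73.2 FPKM across WKY, 12.3, 8.59 and 10.8 across untreated and 11.3, 14.6 and 15.8 across treated SHR (log2 change -2.27 ± 0.14 (SE), adjusted p = 6.6e-05), as did RT1-N2, with 28.9, 35.2 and 30.02 FPKM across WKY, 3.12, 2.28 and 2.19 across untreated and 1.10, 3.97 and 3.18 across treated SHR (log2 change -3.20 ± 0.28 (SE), adjusted p = 0.000497). Treated and untreated SHR lay together, away from WKY, for all 5. The 5 genes were called whichever library was left out, with the segment covariate and with the 4 end libraries left out. Class I genes are highly similar and polymorphic between strains, so how reads were divided among them is uncertain. The summed level of the 33 genes was 1346 to 1827 FPKM in WKY, 1616 to 2275 across untreated and 1367 to 2074 across treated SHR, so the sums overlapped where the 5 single genes did not.

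Slc5a2, the gene of the dapagliflozin target SGLT2, varied widely within each group. It had 9.75, 70.2 and 43.5 FPKM across WKY, 42.9, 23.7 and 2.69 across untreated and 0.63, 20.8 and 8.35 across treated SHR. Levels in the 3 groups overlapped, and the treated minus WKY difference did not pass the test (log2 -2.23 ± 1.18 (SE), adjusted p = 0.188). Slc5a1 (SGLT1) had 16.9, 9.11 and 11.4 FPKM across WKY, 10.8, 10.01 and 10.4 across untreated and 14.6, 7.50 and 7.72 across treated SHR and also did not pass (log2 -0.32 ± 0.26 (SE), adjusted p = 0.384). Of 13 sugar carriers tested, 0 were higher and 3 lower, with a median of -0.56. Slc2a2 (GLUT2), the basolateral glucose exit of the early proximal tubule, had 23.9, 22.3 and 25.5 FPKM across WKY, 17.5, 20.2 and 22.3 across untreated and 19.1, 13.9 and 10.3 across treated SHR (log2 change -0.73 ± 0.19 (SE), adjusted p = 0.0273). Slc5a11, a sodium-dependent inositol carrier (log2 change -0.92 ± 0.26 (SE), adjusted p = 0.0367), and Slc2a9, a urate carrier of the glucose carrier family (log2 change -0.56 ± 0.17 (SE), adjusted p = 0.0433), fell as well. Without WKY library 1, WKY library 3, treated library 2 or treated library 3, 0 sugar carriers were called lower, and without treated library 1 there were 7.

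Some proximal tubule genes fell in treated SHR, and most of the others had lower means without passing the test. All 16 early proximal genes had a lower mean than in WKY, 4 of them called, with a median log2 change of -1.14 (-0.39 for untreated SHR minus WKY). Cubn, the endocytic receptor cubilin, had 46.5, 20.4 and 29.3 FPKM across WKY, 12.2, 15.99 and 11.9 across untreated and 16.3, 10.9 and 5.16 across treated SHR (log2 change -1.54 ± 0.38 (SE), adjusted p = 0.0257). Slc4a4, the basolateral sodium bicarbonate cotransporter (log2 change -1.21 ± 0.38 (SE), adjusted p = 0.0471), Slc7a9, the cystine and dibasic amino acid carrier (log2 change -1.23 ± 0.26 (SE), adjusted p = 0.0165), and Slc2a2 were the others. Of 19 late proximal genes, Acsm3 rose, 4 fell and 14 were not called, with a median of -0.93 (-0.32 for untreated SHR minus WKY). Slc7a13, an aspartate and glutamate carrier of the late segment, had 1624, 658 and 1519.7 FPKM across WKY, 549, 699.9 and 499 across untreated and 839, 109.9 and 196 across treated SHR (log2 change -2.16 ± 0.66 (SE), adjusted p = 0.0462), and Slc22a24, an organic anion carrier, had 120.1, 54.00 and 122 FPKM across WKY, 31.9, 48.6 and 25.6 across untreated and 49.2, 6.98 and 12.1 across treated SHR (log2 change -2.43 ± 0.62 (SE), adjusted p = 0.0277). Treated library 1 lay within or near the WKY range for both genes, and treated libraries 2 and 3 lay far below it.

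Carriers of organic ions were called lower more often than higher, and those of amino acids in both directions. Of 25 organic ion transporters, 0 were higher and 8 lower with a median of -0.97. They included Slc17a3, a phosphate and urate carrier that fell from 261, 197 and 223 FPKM in WKY to 111, 56.1 and 48.99 in treated SHR, with 98.5, 91.4 and 110.0 in untreated SHR (log2 change -1.73 ± 0.27 (SE), adjusted p = 0.00643). The drug efflux pump Abcb1b had 5.39, 1.73 and 4.72 FPKM across WKY, 0.51, 0.29 and 0.43 across untreated and 0.29, 0.14 and 0.2 across treated SHR (log2 change -1.94 ± 0.28 (SE), adjusted p = 0.00546). Slc22a25 (log2 change -1.21 ± 0.24 (SE), adjusted p = 0.0139) and Slc22a13 (log2 change -2.12 ± 0.45 (SE), adjusted p = 0.0161), both of the organic anion carrier family, fell too. Of 20 amino acid transporters 4 were higher and 3 lower (20% and 15%). Slc7a5 (log2 change 1.18 ± 0.18 (SE), adjusted p = 0.00599), a carrier of large neutral amino acids, Slc38a1 (log2 change 1.03 ± 0.17 (SE), adjusted p = 0.00733), which carries glutamine, and Slc7a6 (log2 change 0.76 ± 0.17 (SE), adjusted p = 0.019) rose, and Slc7a12, a relative of Slc7a13, fell from 246, 118 and 300.5 FPKM to 86.04, 7.10 and 15.01, with 101, 156 and 47.7 in untreated SHR (log2 change -3.20 ± 0.81 (SE), adjusted p = 0.0269).

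Called proximal counts moved with the libraries named above, as did the levels of the late list. Levels of the early list did so less. Its mean log2 level was 6.64, 6.87 and 6.70 in WKY, 6.63, 6.43 and 6.04 across untreated and 5.52, 6.11 and 5.18 across treated SHR. Treated library 1 thus lay below all WKY and all untreated SHR libraries for the early list. The summed level of the 19 late proximal genes was 17094 to 24872 FPKM in WKY, 17310 to 19343 in untreated SHR and 7249 to 18761 in treated SHR. With the segment covariate 0 of the early proximal, organic ion, sugar or amino acid carrier genes were called lower, and the same count was 0 for late proximal genes, whose own mean is a term of the score. With the 4 end libraries left out, too few libraries remain for counts of calls to be read, and Slc7a13 stood at log2 0.35. Mean log2 levels in WKY library 2 and treated library 1 were 6.87 and 5.52 for early and 7.52 and 7.67 for late proximal genes. They were 5.07 and 4.95 for organic ion, 4.28 and 3.95 for sugar and 5.19 and 4.96 for amino acid carriers. Leaving out WKY library 1, or WKY library 3, left 0 early and 0 late proximal genes called lower and 2 organic ion transporters, and leaving out treated library 1 gave 9, 12 and 17. Of the 18 called genes in the preceding 3 paragraphs and with Slc27a2, a fatty acid transport protein (log2 change -1.15 ± 0.26 (SE), adjusted p = 0.0184), and Acsm2, a medium-chain acyl-CoA synthetase (log2 change -0.94 ± 0.25 (SE), adjusted p = 0.0312), 4 were called whichever library was left out, namely Abcb1b, Slc17a3, Slc38a1 and Slc7a5.

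Slc9a3, which encodes the proximal sodium-proton exchanger NHE3, had 24.9, 26.9 and 23.1 FPKM across WKY, 39.8, 44.01 and 35.4 across untreated and 20.9, 20.9 and 17.4 across treated SHR. Untreated SHR was highest and treated SHR lowest, with no overlap among the 3 groups. Treated SHR was lower than WKY without passing the test (log2 -0.33 ± 0.11 (SE), adjusted p = 0.0549). The difference of treated from untreated SHR had the smallest adjusted p of that comparison, 0.115, and did not pass either (log2 -0.97).

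Genes of the distal convoluted tubule and the collecting duct were higher in treated SHR. Of 13 distal convoluted tubule genes 11 were called higher and 0 lower (median log2 change 1.01), of 16 principal cell genes 15 and 0 (median 1.38), and of 15 intercalated cell genes 14 and 0 (median 1.37), beside 17.2% higher among all tested genes. Medians of untreated SHR minus WKY were 0.34, 0.69 and 0.74 in the same order, beside 0.07 over all tested genes. Aqp2, the vasopressin-regulated water channel of principal cells, had 191, 385 and 279 FPKM across WKY, 448, 502 and 519 across untreated and 626, 877 and 1168 across treated SHR (log2 change 1.65 ± 0.28 (SE), adjusted p = 0.00854). Aqp3, a basolateral water channel of the same cells, had 36.6, 59.8 and 40.95 FPKM across WKY, 135, 137 and 135 across untreated and 159, 219.8 and 276 across treated SHR (log2 change 2.23 ± 0.22 (SE), adjusted p = 0.00079). All treated libraries exceeded all untreated SHR libraries, and these exceeded all WKY libraries, for both channels. The treated minus untreated difference did not pass the limma test for either (adjusted p = 0.281 for each). Aqp4, the other basolateral water channel, had 11.2, 20.7 and 15.2 FPKM across WKY, 9.51, 11.3 and 14.4 across untreated and 25.2, 41.2 and 47.8 across treated SHR (log2 change 1.22 ± 0.27 (SE), adjusted p = 0.0187), with untreated SHR overlapping WKY.

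The epithelial sodium channel was higher in treated SHR too. Its beta subunit Scnn1b had 54.99, 89.6 and 54.01 FPKM across WKY, 99.7, 87.5 and 137 across untreated and 155, 215 and 275 across treated SHR (log2 change 1.69 ± 0.27 (SE), adjusted p = 0.00697), and its gamma subunit Scnn1g had 25.01, 41.5 and 25.2 FPKM across WKY, 50.5, 45.97 and 66.2 across untreated and 81.4, 89.02 and 141 across treated SHR (log2 change 1.73 ± 0.26 (SE), adjusted p = 0.00579). All treated libraries lay above all WKY and all untreated SHR libraries for both subunits, but the treated minus untreated difference did not pass the limma test (adjusted p = 0.276 for each). Nedd4l, the ubiquitin ligase that removes the channel from the membrane (log2 change 0.61 ± 0.08 (SE), adjusted p = 0.00387), Nr3c2, the mineralocorticoid receptor (log2 change 1.03 ± 0.15 (SE), adjusted p = 0.00597), Fxyd4, a sodium pump regulator (log2 change 1.40 ± 0.19 (SE), adjusted p = 0.00382), and the vasopressin receptor Avpr1a (log2 change 1.66 ± 0.17 (SE), adjusted p = 0.000992) rose as well. Over the 27 distal salt transport genes, 17 rose, 0 fell and 10 were not called, with a median of 0.87.

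In the distal convoluted tubule, Slc12a3, the thiazide-sensitive sodium chloride cotransporter, had 261, 518 and 294 FPKM across WKY, 469.6, 375 and 461 across untreated and 473, 832 and 837 across treated SHR (log2 change 1.01 ± 0.29 (SE), adjusted p = 0.0389). WKY library 2 stood above treated library 1 for Slc12a3. Trpv5, the apical calcium channel, had 4.02, 7.58 and 5.05 FPKM across WKY, 8.33, 6.93 and 9.93 across untreated and 10.3, 15.4 and 18.1 across treated SHR (log2 change 1.25 ± 0.24 (SE), adjusted p = 0.0127). Slc8a1, the sodium-calcium exchanger (log2 change 1.59 ± 0.36 (SE), adjusted p = 0.0187), Trpm6, the magnesium channel (log2 change 0.66 ± 0.15 (SE), adjusted p = 0.0188), and Wnk1, a kinase that controls Slc12a3 (log2 change 1.07 ± 0.24 (SE), adjusted p = 0.0189), rose with them.

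Intercalated cells secrete acid or base. Slc26a4 (pendrin), their apical chloride bicarbonate exchanger, had 73.4, 98.5 and 62.01 FPKM across WKY, 124, 104 and 160.0 across untreated and 163, 214 and 274 across treated SHR (log2 change 1.46 ± 0.24 (SE), adjusted p = 0.00749). Rhcg, an ammonia channel, had 118, 192 and 128 FPKM across WKY, 220.4, 216 and 289 across untreated and 322, 429 and 592 across treated SHR (log2 change 1.60 ± 0.25 (SE), adjusted p = 0.00688). All treated libraries exceeded all others for both genes, but treated minus untreated differences did not pass the limma test (adjusted p = 0.281 for Slc26a4 and 0.276 for Rhcg). The anion exchanger gene Slc4a9 (log2 change 1.66 ± 0.24 (SE), adjusted p = 0.00485) and the carbonic anhydrase gene Car15 (log2 change 1.92 ± 0.26 (SE), adjusted p = 0.00371) rose as well.

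The distal rises moved with the same libraries as the late proximal falls. Summed levels of the principal cell genes were 1044 to 1807 FPKM in WKY, 1964 to 2312 in untreated SHR and 2727 to 4901 in treated SHR. Without WKY library 3 the numbers called higher were 0 of 13 for the distal convoluted tubule, 9 of 16 for principal cells and 7 of 15 for intercalated cells, and 6 of 27 for distal salt transport. With the segment covariate they were 0, 4, 3 and 0. With the 4 end libraries left out, only WKY library 2 and treated library 1 can be set side by side. Their mean log2 levels, in the same order of lists, were 5.52 and 5.62, 5.73 and 6.39, 6.67 and 7.28, and 6.61 and 6.84. Medians with the covariate remained positive at 0.31, 0.68, 0.69 and 0.29, beside 0.02 over all tested genes. Of the 18 distal genes named here, 12 were called whichever library was left out; Slc12a3, Trpv5, Trpm6, Slc8a1, Wnk1 and Aqp4 were not called without WKY library 3.

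**Figure D4:**
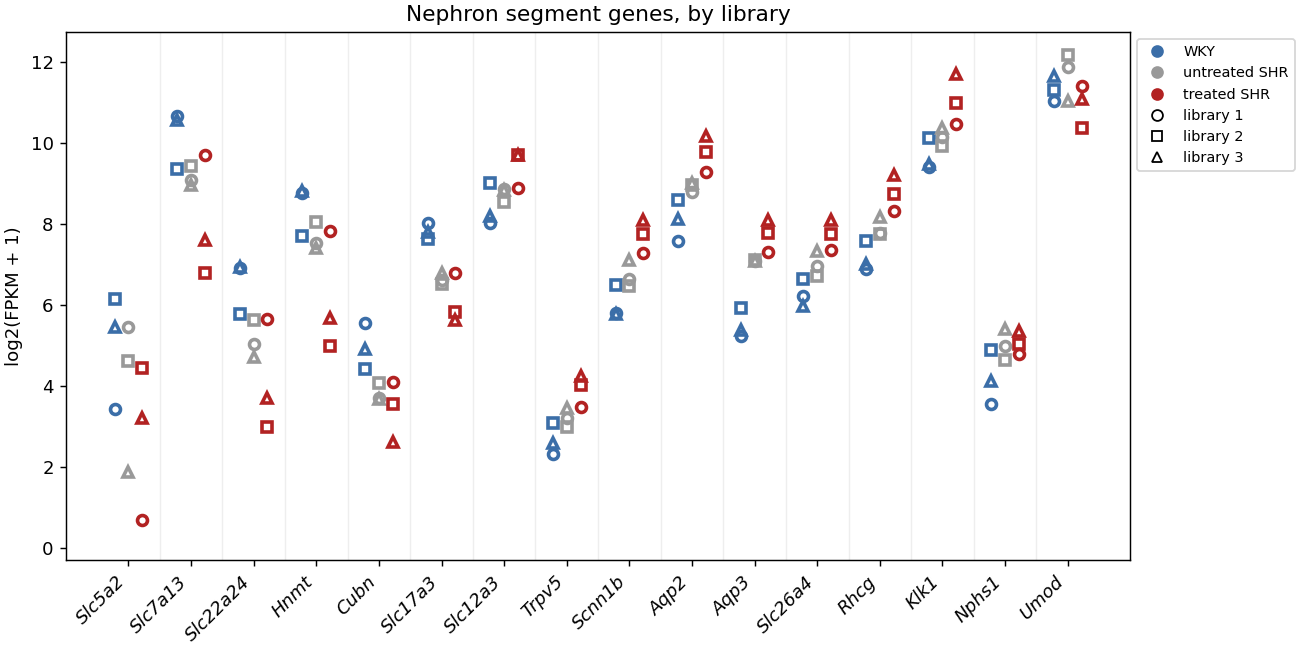
Levels of 16 nephron segment genes as log2(FPKM + 1) (y axis), 1 symbol per library, from proximal genes on the left to distal, podocyte and thick ascending limb genes on the right. For Scnn1b, Aqp2, Aqp3, Slc26a4, Rhcg and Klk1 the 3 treated libraries lay above the 3 WKY libraries, while Slc5a2 and Umod overlapped between groups.

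Between those segments the picture was mixed. Of 12 thick ascending limb genes 2 rose, 1 fell and 9 were not called, with a median of -0.03. At 16.7% and 8.33% these shares were near the 17.2% and 6.19% of all tested genes. Umod, which encodes uromodulin, had 2109, 2548 and 3268 FPKM across WKY, 3758, 4616 and 2107 across untreated and 2741, 1332 and 2174 across treated SHR, with overlap of all groups (log2 -0.38 ± 0.35 (SE), adjusted p = 0.438). The tight junction gene Cldn10 fell (log2 change -1.26 ± 0.24 (SE), adjusted p = 0.0115), while Kcnj1, the potassium channel ROMK (log2 change 0.81 ± 0.19 (SE), adjusted p = 0.0227), rose. Without WKY library 1 Kcnj1 was not called, and without WKY library 3 neither was. Of 5 thin limb genes 2 rose, among them Cldn4 (log2 change 1.20 ± 0.21 (SE), adjusted p = 0.00904), which the collecting duct also expresses. Among 7 inner medulla and osmolyte genes Aqp2 and the heat shock protein gene Hspa4l (log2 change 0.48 ± 0.10 (SE), adjusted p = 0.0141) rose, and the taurine carrier Slc6a6 fell (log2 change -0.92 ± 0.18 (SE), adjusted p = 0.0124).

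All 12 podocyte genes had a higher mean in treated SHR and 4 of them were called, with a median of 0.92. The median of untreated SHR minus WKY was close to it, at 0.81. Nphs1 (nephrin) had 10.8, 28.6 and 16.6 FPKM across WKY, 31.1, 24.02 and 41.5 across untreated and 26.6, 32.2 and 40.4 across treated SHR and did not pass the test (log2 0.88 ± 0.33 (SE), adjusted p = 0.0794). WKY library 1 was the lowest for Nphs1, and the 2 SHR groups overlapped. The podocyte count was 0 without WKY library 1, WKY library 3, treated library 2 or treated library 3, and 10 without WKY library 2. The podocyte median was -0.03 with the segment covariate, a score in which these genes are a term.

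Among vessel genes, Vwf, the von Willebrand factor of endothelial cells, fell from 11.3, 6.54 and 9.77 FPKM in WKY to 2.82, 1.67 and 0.89 in treated SHR, with 2.05, 2.43 and 2.08 in untreated SHR (log2 change -1.90 ± 0.26 (SE), adjusted p = 0.004). The other called endothelial gene of 13, Ehd3 of glomerular capillaries, rose (log2 change 1.25 ± 0.24 (SE), adjusted p = 0.0125) but not without WKY library 3. Of 11 smooth muscle and pericyte genes 0 were called. Col1a1, the collagen I alpha chain gene, rose from 1.77, 1.58 and 1.15 to 4.54, 5.05 and 3.06 FPKM (log2 change 1.05 ± 0.22 (SE), adjusted p = 0.0156), with 4.70, 2.41 and 3.80 in untreated SHR, and the fibroblast receptor gene Pdgfra fell (log2 change -0.86 ± 0.24 (SE), adjusted p = 0.0341). Those were the only called genes of 12 in the fibroblast and matrix list, and each lost its call without WKY library 3. Pdgfra also lost it without WKY library 1, any untreated SHR library, treated library 2 or treated library 3, and Col1a1 without treated library 2.

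Lists of blood and fat markers held only 2 to 10 tested genes. Called shares of such short lists say little beside the 17.2% higher and 6.19% lower of all tested genes. Cd14 was the 1 of 10 macrophage genes called, and it rose (log2 change 0.73 ± 0.16 (SE), adjusted p = 0.0183), while 8 of the 10 had a lower mean in treated SHR (median -0.24). The B cell gene Cd79a was the 1 of 4 lymphocyte genes called, and it rose (log2 change 0.80 ± 0.15 (SE), adjusted p = 0.0109), while the other 3 had a lower mean. Summed macrophage levels were 111 to 271 FPKM in WKY and 102 to 266 in treated SHR. Of 7 red cell genes 1 rose, Slc4a1, shared by red cells and intercalated cells (log2 change 0.87 ± 0.18 (SE), adjusted p = 0.0161). Another, Hba-a3, described above, fell. Of 2 adrenal, fat and muscle genes tested, the fat hormone gene Adipoq (log2 change 0.41 ± 0.13 (SE), adjusted p = 0.0498) rose. Adipoq lost its call without any one of 8 libraries, treated library 1 being the exception, and under each of the 3 other scalings. Of the 13 called genes named in this and the 3 preceding paragraphs, leaving Aqp2 and Hba-a3 aside, 4 were called whichever library was left out, namely Cd79a, Cldn4, Slc6a6 and Vwf. Of the same 13, Vwf alone was called with the segment covariate. None of the 13 was called with the 4 end libraries left out.

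In energy metabolism, glycolysis genes were higher. All 15 had a higher mean in treated SHR, and 8 were called (median 0.49). Pfkl, the liver-type phosphofructokinase, had 21.1, 17.6 and 18.7 FPKM across WKY, 29.9, 31.3 and 34.00 across untreated and 34.5, 33.7 and 29.4 across treated SHR (log2 change 0.74 ± 0.09 (SE), adjusted p = 0.00308), with untreated and treated SHR overlapping. Ldha, lactate dehydrogenase A, had 143, 153 and 152 FPKM across WKY, 169, 166 and 177 across untreated and 207, 234 and 270.4 across treated SHR (log2 change 0.66 ± 0.10 (SE), adjusted p = 0.00612), with all treated libraries above all untreated ones. Pkm, pyruvate kinase (log2 change 0.92 ± 0.16 (SE), adjusted p = 0.00981), and Pfkp, the platelet-type phosphofructokinase (log2 change 0.79 ± 0.19 (SE), adjusted p = 0.0234), rose too. Glycolysis genes called numbered 3 without WKY library 1, treated library 2 or treated library 3, and 1, Pfkl, with the segment covariate.

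Of 11 gluconeogenesis and fructose genes, which the proximal tubule expresses, 1 rose and 2 fell (median -0.55). That is 9.09% and 18.2%, beside 17.2% and 6.19% of all tested genes. Slc37a4, the glucose 6-phosphate carrier (log2 change -0.66 ± 0.14 (SE), adjusted p = 0.0158), and Khk, ketohexokinase (log2 change -0.79 ± 0.22 (SE), adjusted p = 0.0341), fell, and Pck2, the mitochondrial phosphoenolpyruvate carboxykinase (log2 change 0.51 ± 0.15 (SE), adjusted p = 0.042), rose. Of 9 ketone body genes 2 rose, Aacs (log2 change 0.47 ± 0.14 (SE), adjusted p = 0.0425) and Acat1 (log2 change 0.46 ± 0.14 (SE), adjusted p = 0.047), and Bdh2 fell (log2 change -0.75 ± 0.22 (SE), adjusted p = 0.0405). Khk, Slc37a4 and Bdh2 were not called without WKY library 1. Bdh2 also lost its call without WKY library 2 or 3, untreated SHR library 1 or 2, or treated library 3. Pck2, Aacs and Acat1 were not called without WKY library 1 or 3, any untreated SHR library, or treated library 2 or 3. Nor were these 3 called under the 3 other scalings.

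Of 35 fatty acid oxidation genes 3 rose and 7 fell, and the median was near 0. That is 8.57% and 20%, beside 17.2% and 6.19% of all tested genes. Crot, the peroxisomal carnitine octanoyltransferase, had 51.2, 41.2 and 48.8 FPKM across WKY, 28.1, 27.8 and 25.1 across untreated and 27.1, 25.4 and 22.9 across treated SHR (log2 change -0.88 ± 0.10 (SE), adjusted p = 0.0017). Hsd17b4, the peroxisomal bifunctional enzyme (log2 change -0.80 ± 0.15 (SE), adjusted p = 0.0107), and Cpt1b, the muscle-type carnitine palmitoyltransferase (log2 change -0.78 ± 0.14 (SE), adjusted p = 0.0111), fell too. Cpt1b, Crot and Hsd17b4 were called whichever library was left out. Leaving out WKY library 1 or WKY library 3 left 4 oxidation genes called lower.

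Of 22 cholesterol synthesis genes 7 rose and 1 fell, but under each of the 3 other scalings 2 rose and 3 fell. Lss, lanosterol synthase, was the gene that fell, with 9.12, 8.73 and 9.73 FPKM across WKY, 4.93, 5.04 and 4.91 across untreated and 5.57, 4.85 and 5.23 across treated SHR (log2 change -0.71 ± 0.08 (SE), adjusted p = 0.0017), and it was called whichever library was left out. Srebf2, the transcription factor of the pathway (log2 change 0.69 ± 0.13 (SE), adjusted p = 0.011), and Cyp51 (log2 change 0.56 ± 0.14 (SE), adjusted p = 0.0262) were among those higher. Of 12 fatty acid synthesis genes 3 rose, Acacb, an acetyl-CoA carboxylase, among them (log2 change 0.61 ± 0.15 (SE), adjusted p = 0.0217), and 1 fell. Of 36 oxidative phosphorylation genes 5 rose and 1 fell, Ndufa10 (median 0.19). At 13.9% and 2.78% both shares lay below those of all tested genes. Changes were small, such as those of Sdha (log2 change 0.37 ± 0.08 (SE), adjusted p = 0.0177) and Uqcrc1 (log2 change 0.42 ± 0.09 (SE), adjusted p = 0.0152). Without WKY library 1 or WKY library 3, 1 cholesterol gene, 0 fatty acid synthesis genes and 0 respiratory genes were called higher. Of the 19 metabolic genes named in these paragraphs, leaving Ndufa10 aside, Cpt1b, Crot, Hsd17b4, Ldha, Lss, Pfkl and Pkm were called whichever library was left out. Crot, Lss and Pfkl were called with the segment covariate. None of the 19 was called with the 4 end libraries left out.

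Systems that set blood pressure and vessel tone were read next. Of 13 angiotensin system genes 3 rose and 0 fell (median -0.17), or 23.1% and 0% beside 17.2% and 6.19% of all tested genes. Agt (angiotensinogen, made in the late proximal tubule) had 70.1, 47.1 and 66.2 FPKM across WKY, 28.2, 44.95 and 46.97 across untreated and 60.7, 11.2 and 19.4 across treated SHR and did not pass the test (log2 -1.30 ± 0.51 (SE), adjusted p = 0.0903). Ace, the converting enzyme, had 2.84, 0.84 and 1.77 FPKM across WKY, 1.21, 1.04 and 0.89 across untreated and 1.25, 1.09 and 0.78 across treated SHR (log2 -0.41 ± 0.24 (SE), adjusted p = 0.234). Groups overlapped for Agt and Ace. The genes called were Nr3c2, described above, the protease gene Ctsd (log2 change 1.09 ± 0.23 (SE), adjusted p = 0.0155) and the receptor gene Agtr1b (log2 change 0.68 ± 0.20 (SE), adjusted p = 0.0406). Ctsd and Agtr1b lost their calls without WKY library 1 or WKY library 3.

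The kallikrein-kinin system makes kinins, which dilate vessels and promote salt excretion. Klk1, tissue kallikrein of the connecting tubule, had 677, 1115 and 715 FPKM across WKY, 1133, 983 and 1333 across untreated and 1423, 2058 and 3352 across treated SHR (log2 change 1.39 ± 0.31 (SE), adjusted p = 0.0188), with the 3 treated libraries above all others. Its substrates are the kininogens: Kng2 had 7.49, 13.5 and 11.5 FPKM across WKY, 9.76, 11.5 and 9.07 across untreated and 19.2, 22.5 and 37.3 across treated SHR (log2 change 1.19 ± 0.26 (SE), adjusted p = 0.0176), and Kng1 had 2.07, 3.29 and 2.87 FPKM across WKY, 2.90, 2.40 and 2.18 across untreated and 3.73, 7.06 and 12.04 across treated SHR (log2 change 1.10 ± 0.32 (SE), adjusted p = 0.0389). Treated SHR exceeded both other groups for each kininogen, while untreated SHR overlapped WKY. Bdkrb2, the kinin B2 receptor, had 0.63, 0.53 and 0.35 FPKM across WKY, 2.02, 2.27 and 2.58 across untreated and 2.79, 3.12 and 3.96 across treated SHR (log2 change 1.51 ± 0.14 (SE), adjusted p = 0.000613). Of the 16 genes of the kallikrein-kinin, endothelin, nitric oxide and natriuretic list, 8 rose, including the endothelin-converting enzyme Ece1 (log2 change 0.46 ± 0.10 (SE), adjusted p = 0.0165), and 1 fell. Without WKY library 3 the number that rose was 1. Klk1 has close copies in the rat kallikrein family, so its level is uncertain.

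Of 28 arachidonic acid and epoxide genes 6 rose and 4 fell, or 21.4% and 14.3% beside 17.2% and 6.19% of all tested genes. Besides Ephx2, Pla2g2a, a secreted phospholipase A2, rose from 0.33, 1.14 and 0.45 FPKM in WKY to 7.09, 6.11 and 5.61 in treated SHR, with 3.39, 4.71 and 7.22 in untreated SHR (log2 change 2.18 ± 0.25 (SE), adjusted p = 0.00167). Ptgs1 (cyclooxygenase 1, log2 change 1.12 ± 0.18 (SE), adjusted p = 0.00676) and Ptges, a prostaglandin E synthase (log2 change 1.38 ± 0.26 (SE), adjusted p = 0.0118), rose too. Without WKY library 3, 3 arachidonic acid genes rose and 0 fell. Of the 10 called genes in this and the 2 preceding paragraphs, leaving Nr3c2 and Ephx2 aside, Bdkrb2, Pla2g2a and Ptgs1 were called whichever library was left out, and Bdkrb2 and Pla2g2a with the segment covariate. None of the 10 was called with the 4 end libraries left out.

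Injury genes gave no single direction. Of 17 tubular injury and repair genes 4 rose and 1 fell (median 0.04), or 23.5% and 5.88% beside 17.2% and 6.19% of all tested genes. Havcr1 (KIM-1), a proximal injury marker, did not reach the 1 FPKM filter in enough libraries, with 3.83, 0.78 and 2.63 FPKM in WKY, 1.23, 1.18 and 0.13 across untreated and 0.18, 0.13 and 0.09 across treated SHR, so it was not tested. Treated SHR lay below every WKY library for Havcr1. Lcn2 (lipocalin 2) had 4.44, 5.54 and 4.18 FPKM across WKY, 5.09, 5.26 and 6.08 across untreated and 2.58, 5.40 and 6.10 across treated SHR (log2 -0.06 ± 0.24 (SE), adjusted p = 0.867), and Tgfb1, a fibrosis cytokine, had 8.75, 12.2 and 14.2 FPKM across WKY, 16.7, 11.5 and 13.6 across untreated and 10.6, 18.3 and 17.3 across treated SHR (log2 0.36 ± 0.23 (SE), adjusted p = 0.279). Groups overlapped for both.

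Il18, the cytokine interleukin 18, which intercalated cells also make, had 2.84, 7.31 and 5.36 FPKM across WKY, 17.98, 19.4 and 36.1 across untreated and 21.8, 23.8 and 30.02 across treated SHR (log2 change 2.14 ± 0.32 (SE), adjusted p = 0.00599). Clu (clusterin) fell, with 106, 118 and 92.2 FPKM across WKY, 46.7, 40.7 and 45.1 across untreated and 38.2, 53.2 and 60.1 across treated SHR (log2 change -1.06 ± 0.16 (SE), adjusted p = 0.00605). Treated and untreated SHR overlapped for Il18 and Clu, and both genes were called whichever library was left out. Spp1 (osteopontin, log2 change 1.17 ± 0.24 (SE), adjusted p = 0.015) and Krt18 (keratin 18, log2 change 1.21 ± 0.27 (SE), adjusted p = 0.0181) rose as well, though not without WKY library 3. Of 19 inflammation genes 2 rose and 2 fell, or 10.5% each, beside 17.2% and 6.19% of all tested genes. Il18 and Rela (log2 change 0.29 ± 0.09 (SE), adjusted p = 0.0451) rose. The chemokine gene Ccl2 (log2 change -0.72 ± 0.20 (SE), adjusted p = 0.036) and the adhesion gene Icam1 (log2 change -0.36 ± 0.11 (SE), adjusted p = 0.0463) fell. Without WKY library 1 or WKY library 3, neither Ccl2 nor Icam1 was called, and Rela was not called under the 3 other scalings.

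Of 36 interferon-stimulated genes 3 rose and 2 fell, at 8.33% and 5.56% both below the 17.2% and 6.19% of all tested genes. Ifi44l (log2 change -1.24 ± 0.19 (SE), adjusted p = 0.00599) and Parp14 (log2 change -0.42 ± 0.11 (SE), adjusted p = 0.0268) fell, and Ifih1, a sensor of viral RNA (log2 change 0.47 ± 0.13 (SE), adjusted p = 0.0358), rose beside Ifit1. Of 19 complement genes 1 rose, Cfb (log2 change 0.69 ± 0.18 (SE), adjusted p = 0.0269), and 3 fell, or 5.26% and 15.8%. C4a had 7.86, 3.90 and 5.28 FPKM across WKY, 2.14, 2.11 and 1.68 across untreated and 1.54, 0.59 and 0.38 across treated SHR (log2 change -1.87 ± 0.27 (SE), adjusted p = 0.00485) and C5 had 14.4, 15.2 and 14.4 FPKM across WKY, 15.1, 13.7 and 9.14 across untreated and 5.24, 8.22 and 4.61 across treated SHR (log2 change -1.19 ± 0.21 (SE), adjusted p = 0.0102). The third was Clu. C4a, C5 and Ifi44l were called whichever library was left out, while Ifih1, Parp14 and Cfb were not.

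Of 16 hypoxia genes 5 rose and 0 fell (median 0.25), with 0 called without WKY library 1, WKY library 3, treated library 2 or treated library 3. Ddit4, a stress inhibitor of mTOR signalling, had 6.97, 9.20 and 6.80 FPKM across WKY, 21.4, 23.6 and 13.8 across untreated and 14.3, 14.4 and 14.6 across treated SHR (log2 change 0.85 ± 0.18 (SE), adjusted p = 0.0176). Adm, the vasodilator adrenomedullin (log2 change 1.33 ± 0.31 (SE), adjusted p = 0.0198), and Hif1a, the hypoxia-inducible factor (log2 change 0.32 ± 0.09 (SE), adjusted p = 0.0373), rose too. Of 25 unfolded protein and heat shock genes 5 rose, among them Hspb1 (log2 change 1.04 ± 0.19 (SE), adjusted p = 0.0106), Xbp1 (log2 change 0.38 ± 0.08 (SE), adjusted p = 0.0142) and Trib3 (log2 change 0.64 ± 0.17 (SE), adjusted p = 0.0288), and 1 fell, or 20% and 4%, near the shares of all tested genes. Without WKY library 3 the number that rose was 1, Hspb1. Of 17 immediate early genes 2 rose, Ier3 (log2 change 1.44 ± 0.28 (SE), adjusted p = 0.013) and Klf2 (log2 change 1.02 ± 0.32 (SE), adjusted p = 0.0478), and 0 of them without WKY library 1. Their share of 11.8% lay below the 17.2% of all tested genes. Hif1a and Klf2 were not called under the 3 other scalings.

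Of 17 circadian clock genes Per3 (log2 change 1.05 ± 0.20 (SE), adjusted p = 0.0127) and Dbp (log2 change 1.14 ± 0.26 (SE), adjusted p = 0.0194) rose and Arntl fell (log2 change -0.69 ± 0.17 (SE), adjusted p = 0.0252), and none of the 3 was called without WKY library 3. These shares, 11.8% and 5.88%, lay below the 17.2% and 6.19% of all tested genes. The time of day at which kidneys were taken is not given in the labels. Of 24 nutrient-sensing genes 8 rose and 0 fell (median 0.28), among them the sirtuin gene Sirt5 (log2 change 0.37 ± 0.07 (SE), adjusted p = 0.0127), Prkag1 of AMPK (log2 change 0.49 ± 0.09 (SE), adjusted p = 0.0127) and its upstream kinase gene Stk11 (log2 change 0.31 ± 0.07 (SE), adjusted p = 0.0188). Without WKY library 3, 0 nutrient-sensing genes were called. Of 16 cell cycle genes 2 rose, Tyms (log2 change 0.84 ± 0.19 (SE), adjusted p = 0.019) among them, and 1 fell, Birc5 (log2 change -0.55 ± 0.14 (SE), adjusted p = 0.0273). That is 12.5% and 6.25%, no more than the shares of all tested genes show. Of the 29 called genes in this and the 3 preceding paragraphs, 6 were called whichever library was left out, namely C4a, C5, Clu, Hspb1, Ifi44l and Il18, and 3 with the segment covariate, C4a, Clu and Ifi44l. With the 4 end libraries left out, Clu alone of the 29 was called.

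**Figure D5:**
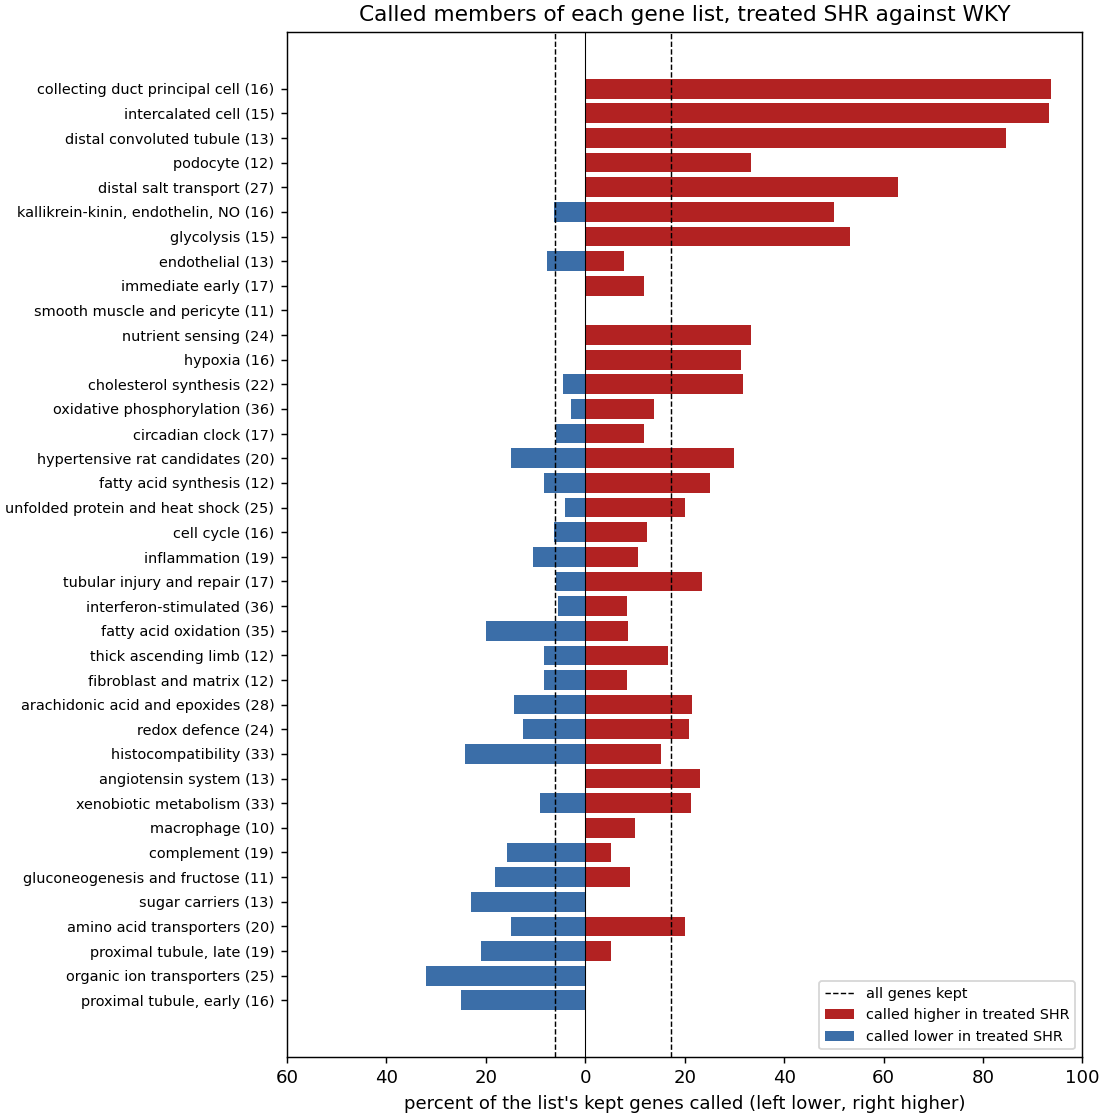
Percent of each list's tested genes called higher (right) or lower (left) in treated SHR than in WKY, with the number tested in brackets and dashed lines at the values of all tested genes, 17.2% higher and 6.19% lower. Collecting duct, intercalated and distal convoluted tubule lists lay furthest to the right, and organic ion transporters, early proximal tubule and sugar carriers had no gene called higher.

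Untreated SHR were set beside both groups. Between untreated SHR and WKY 373 genes (2.90%) were called, and between treated and untreated SHR 0 genes (0.00%) by limma, with 1983 genes at an unadjusted p below 0.05. The genes below were chosen by the size of the treated minus untreated difference among those called against WKY, and are given as a description. Crabp1, Aqp4, Kng1, Kng2 and Defb11 lay furthest above untreated SHR. Defb11, a beta-defensin, had 7.73, 25.5 and 14.7 FPKM across WKY, 21.2, 19.8 and 28.7 across untreated and 38.8, 61.9 and 86.8 across treated SHR (treated minus untreated log2 1.33, adjusted p = 0.276), beside log2 1.59 for Aqp4, 1.25 for Kng2, 1.19 for Kng1 and 1.16 for Crabp1. For Aqp4, Kng1 and Kng2 the mean of untreated SHR was at or below that of WKY (log2 -0.37, -0.09 and -0.06).

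Among genes lower than in WKY, Slc7a12, Serpinb12, Hnmt, Tcf24 and Etnppl lay furthest below untreated SHR. Serpinb12, a serine protease inhibitor, had 10.9, 8.69 and 14.8 FPKM across WKY, 12.3, 9.70 and 3.04 across untreated and 4.39, 0.25 and 0.42 across treated SHR, and Tcf24, a transcription factor gene, had 5.37, 3.41 and 7.24 FPKM across WKY, 4.13, 5.09 and 2.74 across untreated and 1.06, 0.49 and 0.81 across treated SHR (treated minus untreated log2 -1.46, adjusted p = 0.276). Hnmt, which methylates histamine, had 439.8, 209.8 and 451 FPKM across WKY, 185, 266 and 169 across untreated and 227, 31.1 and 50.3 across treated SHR, and Etnppl, an ethanolamine phosphate lyase, had 129, 44.6 and 81.9 FPKM across WKY, 46.2, 70.3 and 54.8 across untreated and 56.1, 9.25 and 14.9 across treated SHR. Treated library 1 was close to untreated SHR for Hnmt and Etnppl and not for Tcf24. All of Serpinb12, Hnmt and Etnppl lost their calls against WKY without WKY library 1 or WKY library 3, and Tcf24 kept its call whichever library was left out.

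Other genes stood between WKY and untreated SHR. Cfap126, a gene of motile cilia, had 2.69, 3.44 and 3.35 FPKM across WKY, 23.4, 21.4 and 19.3 across untreated and 15.4, 17.4 and 10.4 across treated SHR, and Ptprn, a phosphatase-like protein of secretory granules, had 10.99, 8.34 and 8.88 FPKM across WKY, 27.9, 32.3 and 31.9 across untreated and 24.2, 22.2 and 11.3 across treated SHR. Rexo5, an RNA exonuclease gene, had 0.98, 0.63 and 1.06 FPKM across WKY, 9.71, 12.8 and 5.43 across untreated and 6.28, 3.50 and 4.03 across treated SHR, and Pecr had 139.6, 187 and 158 FPKM across WKY, 479, 468 and 457 across untreated and 427, 272 and 223 across treated SHR. Every treated library lay below every untreated one for Cfap126, Ptprn and Pecr, and treated library 1 exceeded the lowest untreated library for Rexo5. On the other side Abcb10, a mitochondrial transporter, had 25.6, 26.2 and 24.9 FPKM across WKY, 7.53, 6.60 and 7.51 across untreated and 8.41, 11.04 and 12.9 across treated SHR, and Nmb (neuromedin B) had 1.29, 2.42 and 2.10 FPKM across WKY, 0.27, 0.13 and 0.12 across untreated and 0.87, 0.67 and 0.61 across treated SHR. Fam189a2 (4.62, 2.47 and 3.25 FPKM across WKY, 1.12, 1.06 and 1.30 across untreated and 1.46 to 2.26 across treated SHR) and Abhd10 (5.11, 7.66 and 7.83 FPKM in WKY, 3.32, 1.57 and 2.69 in untreated and 2.99, 3.83 and 4.05 in treated SHR) had the same order of means. The difference of treated from untreated SHR had an adjusted p of 0.276 for Cfap126 and 0.276 for Abcb10, and none of these genes passed that test. Against WKY, Abcb10, Cfap126 and Rexo5 were called whichever library was left out.

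Some genes with the widest differences were neighbours. Of the 70 called genes with a log2 change of at least 2 in size, 63 could be placed on the GRCr8 gene order, and 14 of these lay in 5 runs with at most 3 tested genes between members. Setd4, Cbr1, Cbr3 and an unnamed locus, all higher, formed the run on chromosome 11. Eri2 and Acsm3 formed the run on chromosome 1, both higher. RT1-CE10, RT1-CE4 and RT1-CE2 formed the run on chromosome 20, the first lower and the others higher. Galnt3, a glycosyltransferase gene (log2 change -2.07), and an unnamed locus (3.28) formed a run of opposite directions on chromosome 3, and 3 unnamed loci, all higher, the run on chromosome 17. Over all chromosomes, 63 such genes lay among the 12395 tested genes that could be placed. Chromosome 20 held 10 among its 392 tested genes, chromosome 11 held 5 of 323 and chromosome 17 held 4 of 349. Chromosome 8 held 6 of 692 and chromosome 5 held 6 of 832, while chromosomes X, 9 and 12 held 0 of 357, 484 and 419. Whether these counts or the runs exceed those of a random gene order was not tested.

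A small set of genes was called under each of a series of settings. Across the leave-outs of single libraries, the 3 other scalings, both covariates and the 3 larger leave-outs chosen after seeing the data, 27 genes were called throughout, 14 higher and 13 lower. The other pseudocounts and filters, the trend settings, the replicate block, the 2-fold minimum and the fit on 6 libraries were not part of this tally. Named higher genes were Acsm3, Cbr1, Cbr3, Ephx2, Eri2, Ndufa10l1, RT1-A1, RT1-CE2, Setd4 and Rtel1, a helicase gene (log2 change 1.59). Named lower genes were Ces2g, Dapk2, Gstm1, H2bc12, Hba-a3, RT1-CE10, Timd2, Topaz1, Galnt3, Dnm1, the dynamin 1 gene (log2 change -2.66), and Matn1, the matrilin 1 gene (log2 change -2.61). Since the covariates were built from proximal and podocyte genes and the larger leave-outs removed the ends of the segment gradient, these settings by construction weigh against segment markers.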

How the data were processed

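Total RNA of 9 rat kidney libraries, 3 per group, was read as single ends of 50 bases on a BGISEQ-500, per the labels. The authors deposited 1 FPKM value per gene and library with 2 decimals, per the file headers. The submitters' processing notes name HISAT2 2.0.4, Bowtie2 2.2.5 and the build Rnor_6.0. No source used here gives the expression program or annotation, and read depth is unknown. Both strains were read against a reference of another strain, and its effect on levels was not tested.

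Genes with at least 1 FPKM in at least 3 of the 6 compared libraries were kept. Values were tested as log2(FPKM + 1), so changes of low genes are understated. limma 3.58.1 (R 4.3.3) was fitted with group means of all 9 libraries and an intensity trend, two-sided, with Benjamini-Hochberg adjustment over 12870 genes, and genes with adjusted p below 0.05 were called. The model was run on simulated data with independent noise for each gene. Such data lack the segment gradient shared by many genes here, so the run does not show how reliable the calls are. Without labels tying libraries to animals, p-values measure the spread between libraries.

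Named genes were the 12 largest rises and 12 largest falls with a mean of at least 5 FPKM in the higher group and no overlap, up to 4 called members of each of 44 lists by smallest p, the 10 smallest p, and a fixed set of kidney genes. Up to 5 called genes in each direction with the largest treated minus untreated difference were added, in the same and in the opposite sense; not every gene the rule gives is named, and some are not reported here. The genes and lists were chosen with earlier results of these data known. Havcr1, Ndufa10, Rtel1, Dnm1 and Matn1 were described as the text states. Gene IDs were matched to RefSeq (GRCr8) for 12395 of 12870 genes, 11774 of them with the same symbol there. The match was used for names, gene order and promoter windows. The alternatives were other pseudocounts, filters, scalings, fits, leave-outs, the replicate block and segment covariates.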

Additional observations from a re-analysis of the deposited data

How the results depend on the processing

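The 3011 calls were recomputed under 26 listed alternatives and 3 added after seeing the data. Pseudocounts, filters, the trend setting, quantile or upper-quartile scaling and the replicate block left the total within 1.5 times of 3011 (2572 to 3010). Median-of-ratios scaling gave 1443 higher and 1225 lower calls, and with quantile and upper-quartile scaling 1595 and 1638 were higher and 1075 and 1064 lower (59.7% and 60.6% higher). A fit on the 6 compared libraries alone called 1041 (767 higher, 274 lower), a 2-fold minimum 590 (368 and 222), the segment covariate 210 (121 and 89) and the proximal covariate 35 (17 and 18). Leaving out 1 library gave 603 to 4762 calls (425 to 3381 higher, 178 to 1381 lower). Added after seeing the data, leaving out treated libraries 2 and 3 gave 168 calls (87 and 81), WKY libraries 1 and 3 gave 53 (28 and 25), and all 4 gave 77 (41 and 36). With so few libraries left in a group, the lone library is assumed to vary like the rest, and fewer libraries were tested. Genes called under every single leave-out and the 3 other scalings numbered 559, and 184 of these with the segment covariate too. With the replicate number as a block, called the replicate block, 2708 genes were called (1959 higher, 749 lower). The labels do not say that numbers mark shared animals, and same-numbered WKY and treated libraries deviated together with r of 0.468, 0.403 and -0.008, so the numbers were not taken as pairs. Read depth is unknown, so its effect on low levels could not be weighed.

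The following log2 changes had the opposite sign to that of the main model. Without WKY library 2, it was Lcn2 0.0403. Without treated library 1, it was Lcn2 0.24. With the segment score as covariate, they were Slc5a1 0.43, Nphs1 -0.065, Ace 0.196 and Tgfb1 -0.200. With the mean of both proximal lists as covariate, they were Slc5a1 0.47, Slc5a11 0.25, Slc2a9 0.0379, Slc9a3 0.00653, Cubn 0.21, Slc7a9 0.023, Slc27a2 0.013, Acsm2 0.27, Nphs1 -0.15, Pdgfra 0.27, Adipoq -0.0919, Khk 0.18, Pck2 -0.00272, Bdh2 0.32, Aacs -0.0374, Ace 0.23, Klk1 -0.00395, Kng1 -0.25, Tgfb1 -0.17, Adm -0.0252 and Klf2 -0.0643. Without treated libraries 2 and 3, they were Slc5a1 0.25, Umod 0.0766, Agt 0.011 and Tgfb1 -0.11. Without WKY libraries 1 and 3, they were Slc5a1 0.0544 and Ace 0.14. Without all 4 of these, they were Slc5a1 0.63, Slc7a13 0.35, Slc12a3 -0.13, Umod 0.11, Nphs1 -0.104, Pck2 -0.0409, Acat1 -0.0478, Agt 0.36, Ace 0.29, Tgfb1 -0.18, Klf2 -0.11, Hnmt 0.11 and Etnppl 0.33. The cause was not tested. Apart from these, and leaving Ndufa10 aside, the sign of each named gene held under the alternatives run.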
